A study of Mus musculus with 9 samples.

Results

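The genes described here encode the proteins of the cytosolic ribosome, and their transcripts were measured in liver RNA of obese mice given vehicle or either of 2 doses of a plant extract. They were taken as every single gene symbol on the array of the form Rpl or Rps followed by a number and an optional a, l or x, plus Rpsa and the Rplp genes. Where a symbol had several probe sets, the brightest over the 9 arrays was kept. This gave 65 genes from 68 probe sets, among 21154 gene symbols and 22206 probe sets in all. They comprised 25 small-subunit genes, 32 large-subunit genes, the P stalk genes Rplp0 and Rplp1, and 6 genes whose symbol ends in l, most of them paralogs of a core gene.

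Total liver RNA of male leptin-deficient C57BL/6JHamSlc-ob/ob mice was hybridized to Clariom S mouse arrays. The mice were obtained at 6 weeks of age, kept on standard chow, and gavaged for 42 days with vehicle, with Vigna Umbellata extract (VE) at 50 mg per kg body weight (VE50), or with the same extract at 100 mg per kg (VE100). Each group had 3 arrays, every group carried the ob/ob genotype, and the wild-type mice named by the study were not analysed here. The labels do not say that the 3 arrays of a group came from separate animals, so the p-values below measure the spread between these arrays, which may be technical. Values are log2 signals, in which a difference of 1 is a change of 2-fold.

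A cytosolic ribosome joins a small subunit, which reads the mRNA, and a large subunit, which forms the peptide bond. The P stalk of the large subunit, built on Rplp0, recruits the elongation factors. Ribosomal protein mRNAs of mammals begin with a cytosine followed by a run of pyrimidines, the 5′ terminal oligopyrimidine (TOP) tract, through which the kinase mTOR and the RNA-binding protein Larp1 control their translation. These genes are transcribed strongly in nearly all cells, liver included, and have many processed pseudogenes, whose near-identical sequence can bind the same array probes.

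RefSeq placed the 65 genes on 18 chromosomes of GRCm38.p6, with 10 on chromosome 7 and 3 on the X chromosome. The RefSeq promoter table held 58 transcription starts of 47 of them. A start with C as its first base and only C or T in its first 5 bases was found at 19.0% of these starts (11 of 58), against 2.51% of all 32851 starts in the table. The windows of 8 of these genes are shown as examples of the tract, which most member starts in the table did not have at the annotated base. Each is given with 15 bases before and 15 from the annotated start and with the tract in capitals.
Rps6, chr4:86857353-86857382, minus strand: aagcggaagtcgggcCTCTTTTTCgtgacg
Rps10, chr17:27635230-27635259, minus strand: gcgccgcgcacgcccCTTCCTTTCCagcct
Rps15a, chr7:118116133-118116162, minus strand: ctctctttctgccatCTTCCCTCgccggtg
Rps18, chr17:33955651-33955680, minus strand: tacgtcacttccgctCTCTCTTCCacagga
Rpl28, chr7:4792950-4792979, plus strand: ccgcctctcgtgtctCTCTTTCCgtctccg
Rpl35, chr2:39005117-39005146, minus strand: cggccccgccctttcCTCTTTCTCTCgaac
Rpl35a, chr16:33056467-33056496, plus strand: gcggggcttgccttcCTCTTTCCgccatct
Rpl38, chr11:114668565-114668594, plus strand: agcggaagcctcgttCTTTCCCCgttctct
Each of these 8 tracts begins at the annotated start. A start annotated a few bases away from the tract would not be counted, so these shares describe the annotated starts.

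Upstream of the starts, the ETS core CGGAAG was found on either strand within 250 bases of 43.1% of the ribosomal protein starts and of 13.6% of all starts. The GC box GGGCGG was found at 43.1% against 32.7%, and the YY1 core ANATGGC at 15.5% against 11.5%. The TATA box TATAAA was found at 5.17% against 12.4%. The ETS core and the GC box can overlap by the letters CGG, and a match describes the letters only. The 100 bases before the start of Rpl41, the gene with the lowest difference at both doses, are shown with the ETS core in capitals.
Rpl41, chr10:128549169-128549268, minus strand: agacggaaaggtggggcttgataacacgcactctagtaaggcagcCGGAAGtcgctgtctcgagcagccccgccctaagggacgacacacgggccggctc

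Ribosomal protein signals varied together between arrays of the same group, and the third vehicle array stood apart. For each array the median over the 65 genes of the deviation from each gene's own mean was taken. It was -0.28, -0.27 and 0.66 on vehicle arrays 1 to 3, 0.32, 0.04 and 0.00 on the VE50 arrays, and -0.34, -0.03 and 0.04 on the VE100 arrays. The same median over all 22206 probe sets stayed between -0.03 and 0.02. The vehicle group therefore held the highest array and 2 of the 3 lowest, and its range enclosed the medians of all VE50 arrays and of VE100 arrays 2 and 3.

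**Figure D1:**
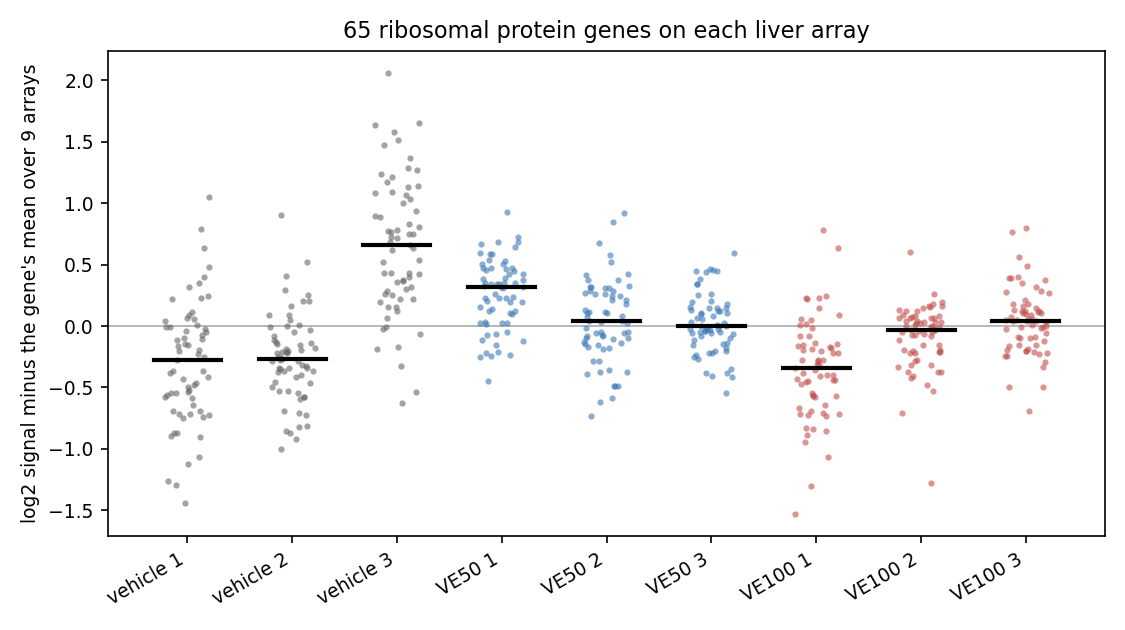
Deviation of each of 65 ribosomal protein genes from its own mean over 9 arrays (y axis, log2 signal), by array (x axis), with grey, blue and red points for vehicle, VE50 and VE100 and a black bar at the median. The median of vehicle array 3 lies at 0.66 and those of vehicle arrays 1 and 2 at -0.28 and -0.27.

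On vehicle array 3, 42 of the 65 genes had their highest value of the 9 arrays, whereas 23.6% of all probe sets did. Between vehicle arrays alone, 52 genes were higher on array 3 than on both others and 8 were lower than on both. The median excess of array 3 over the mean of arrays 1 and 2 was 0.965 for the 65 genes and 0.06 for all probe sets. An excess of more than 1 was seen for 49.2% of the genes (32 of 65) and for 10.2% of all probe sets.

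The excess was largest for Rps27l, a p53-inducible relative of Rps27, which read 11.20, 11.54 and 14.52 on the vehicle arrays. Rpl11, a large-subunit protein that with Rpl5 and 5S rRNA can bind Mdm2, read 12.83, 12.90 and 15.38. Rpsa, the small-subunit protein also known as the laminin receptor precursor, read 10.62, 11.00 and 13.00. In these 3 genes vehicle array 3 lay above all 8 other arrays. Genes with the opposite order included Rps4x, Rps26, Rps28, Rps29, Rpl23, Rpl29 and Rpl41. The X-linked Rps4x, for example, read 11.38, 11.47 and 10.79.

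The 17 probe sets that carried a ribosomal protein symbol together with another symbol, and that did not copy a member, gave an array pattern of the same shape. Their median deviations were -0.64, -0.41 and 0.76 on the vehicle arrays, and 12 of them were highest on vehicle array 3. Rplp2, the other acidic stalk protein, was present only in such a probe set, shared with Snora52, and it was lowest on that array, at 11.09, 10.76 and 9.85.

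Other transcripts moved with vehicle array 3. The mean of 6 acute-phase genes was 11.68, 11.98 and 16.16 on the vehicle arrays and 10.25 to 12.51 on the other 6. Of these 6 genes, 2 were above the negative controls on all arrays. Serum amyloid Saa1 read 8.01, 9.03 and 15.76 and Saa2 read 10.61, 11.81 and 18.75 on the vehicle arrays. The mean of 6 endothelial markers was 8.22, 8.34 and 6.87 on the vehicle arrays and 7.22 to 7.87 on the others, with none of the 6 above the negative controls on all arrays. The mean of 6 measured hepatocyte markers was between 18.97 and 19.41 on all 9 arrays, and all 6 were above the negative controls throughout. The means of 4 neutrophil markers were 4.86, 4.36 and 5.59 on the vehicle arrays and 4.16 to 4.84 on the others, with none of the 4 above the negative controls on all arrays. Some lists hardly moved on the vehicle arrays, with means of 7.53, 7.35 and 7.38 for 8 macrophage markers and of 3.38, 3.29 and 3.47 for 5 lymphocyte markers. None of those markers was above the negative controls on all arrays. The part of these transcripts in the ribosomal protein values was not tested. In such bulk RNA, fewer cells of a type and less RNA per cell cannot be told apart.

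Hybridization-control spots averaged 10.73 to 11.01 on the vehicle arrays, 10.93 to 11.27 on the VE50 arrays and 11.15 to 11.44 on the VE100 arrays. The share of all probe sets above the 95th percentile of 5222 negative-control probe sets was 20.2%, 20.0% and 14.3% on the vehicle arrays and 14.99% to 17.8% on the others. Of the 65 genes, 54 exceeded that percentile on all 9 arrays, 7 on some and 4 on none, so their signals lay mostly well within the measurable range. The 4 were Rpl3l, Rpl10l, Rpl39l and Rps4l.

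The genes differed widely in their spread. The pooled SD within groups had a median of 0.482, and the range over the 9 arrays had a median of 1.46. Rpl37 varied least, with a pooled SD of 0.16 and values between 12.55 and 13.04. Rplp0, often used as an invariant reference transcript in quantitative PCR, read 11.80, 11.90 and 13.02 with vehicle, 12.12, 11.19 and 11.84 at VE50, and 10.86, 11.89 and 11.65 at VE100. Its lowest and highest arrays thus lay 2.16 apart, and the 3 groups overlapped.

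At 50 mg per kg, 2 genes passed the study's criterion, a linear fold above 1.1 together with an unadjusted p under 0.05. One was higher. The other, Rpl41, which encodes the very short and basic peptide of the large subunit, was 2.04-fold lower. The background of the criterion was 3.31% of all probe sets higher and 2.8% lower, so 1 higher and 1 lower among 65 was no more than that background. The median log2 difference over the 65 genes was 0.07, with 41 above 0, and -0.01 over all probe sets. This position depended on vehicle array 3, without which the median was 0.39.

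Rpl41 read 15.41, 15.26 and 14.99 with vehicle, 14.59, 13.87 and 14.12 at VE50, and 12.83, 14.04 and 14.11 at VE100. Every treated array lay below every vehicle array, while VE50 and VE100 overlapped. The group means were 15.22 ± 0.21, 14.19 ± 0.37 and 13.66 ± 0.72 (SD, n = 3). The difference of VE50 from vehicle was -1.03 ± 0.35 (limma, unadjusted p = 0.0143, adjusted p = 0.794). Without VE50 array 2 it was -0.86 and no longer passed the criterion (unadjusted p = 0.0569).

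No gene of the 65 passed an adjusted p of 0.05 by limma at VE50, the share among all probe sets being 0%, and 2 passed an unadjusted p of 0.05. The arrays of the groups did not overlap for 4 genes, among them Rps10 with VE50 higher and Rpl4 and Rpl41 with VE50 lower. Such separation was seen in 10.9% of all probe sets.

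Large positive differences belonged to Rpl31, Rpl35a and Rps19, and each rested on a wide vehicle group. Rpl31 read 12.56, 13.29 and 15.37 with vehicle and 14.51, 14.11 and 14.34 at VE50. Rpl35a, a large-subunit gene mutated in human Diamond-Blackfan anaemia, read 9.81, 10.29 and 12.34 with vehicle and 11.61, 11.14 and 11.36 at VE50. Rps19, the gene most often mutated in that disease, read 9.22, 10.03 and 11.00 with vehicle and 10.67, 10.60 and 10.54 at VE50. In all 3 the VE50 arrays lay between vehicle arrays 2 and 3, and the differences were 0.58 ± 0.56, 0.56 ± 0.53 and 0.52 ± 0.37 (SE).

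The lowest differences after Rpl41 were those of both stalk genes and Rpl9. Rplp1, an acidic protein of the P stalk, read 15.40, 15.29 and 16.36 with vehicle, 15.31, 14.60 and 15.19 at VE50, and 13.78, 14.71 and 15.13 at VE100. The VE50 difference of Rplp1 was -0.65 ± 0.40, that of Rplp0 was -0.52 ± 0.40, and neither passed the criterion. Rpl9, a large-subunit protein, read 12.64, 12.70 and 13.46 with vehicle and 12.24, 12.71 and 12.55 at VE50, a difference of -0.43 ± 0.27 with overlapping groups.

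Without vehicle array 3 the VE50 comparison changed. The criterion was then passed by 27 genes higher and 1 lower, with backgrounds of 5.95% and 7.52%, and the median difference was 0.39. The higher genes comprised 11 of the small subunit, 14 of the large subunit and 2 of the l-suffixed genes, and the lower one was Rpl41. An adjusted p of 0.05 by limma was passed by 1 gene, where 0.045% of all probe sets did. The value with all 9 arrays and the value with 8 differ only by that array.

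At 100 mg per kg, 6 genes passed the criterion, 2 of them higher and 4 lower than vehicle. Rpl27 was 1.54-fold higher, whereas Rpl41 was 2.95-fold, the Rpl29 probe set 2.58-fold, Rplp1 2.21-fold and Rps13 1.46-fold lower. The background was 5.11% of all probe sets higher and 4.37% lower, and the counts of 2 and 4 among 65 lay near it. The median difference over the 65 genes was -0.14, with 42 below 0, and -0.01 over all probe sets. No gene passed an adjusted p of 0.05 by limma, the share of all probe sets being 0%, and the smallest adjusted p was 0.319.

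Rpl27, a large-subunit protein, read 9.54, 9.47 and 10.22 with vehicle, 10.29, 10.01 and 9.92 at VE50, and 10.70, 10.26 and 10.15 at VE100. Vehicle array 3 lay within the VE100 range, and the difference was 0.63 ± 0.26 (unadjusted p = 0.0379). Rpl27 did not pass when vehicle array 1 or 2, VE50 array 2, or VE100 array 1 or 2 was left out, with differences between 0.46 and 0.68.

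Rpl41 had the lowest difference, -1.56 ± 0.35 (SE, limma unadjusted p = 0.00111, adjusted p = 0.319). VE100 array 1 supplied the lowest of its values, and the other 2 VE100 arrays lay within the VE50 range.

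For Rpl29, a large-subunit protein of eukaryotes also described as a heparin-binding protein, the retained probe set read 13.56, 13.29 and 12.96 with vehicle, 13.12, 13.69 and 12.59 at VE50, and 11.94, 11.49 and 12.27 at VE100. Every VE100 array lay below every array of both other groups, and the difference from vehicle was -1.37 ± 0.32 (SE, limma unadjusted p = 0.00149, adjusted p = 0.319). This probe set is of uncertain identity. Its ID carries chromosome 1, whereas RefSeq places Rpl29 on chromosome 9, and the IDs of the other 64 genes carry their RefSeq chromosome. Its values were identical on all 9 arrays to those of a probe set annotated to Gm13841 and Rpl29 together.

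The other Rpl29 probe set, whose ID carries chromosome 9, read 11.46, 11.88 and 12.15 with vehicle, 12.12, 12.55 and 11.69 at VE50, and 11.89, 11.32 and 11.67 at VE100. Its groups overlapped, and its VE100 difference from vehicle was -0.20 ± 0.29 (SE, limma unadjusted p = 0.492). The lower VE100 signal was therefore seen in only 1 of the 2 independent probe sets that carry this symbol alone.

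Rplp1 was -1.14 ± 0.40 from vehicle at VE100 (SE, limma unadjusted p = 0.0157), and its VE100 arrays lay below all vehicle arrays. Its stalk partner Rplp0 was -0.77 ± 0.40 (unadjusted p = 0.0794), with 1 VE100 array inside the vehicle range. In both stalk genes VE100 array 1 was the lowest of the 9, and without it Rplp1 was at -0.76 and did not pass (unadjusted p = 0.0728). Rps13, a small-subunit protein, read 8.67, 8.91 and 9.05 with vehicle, 8.74, 8.56 and 8.62 at VE50, and 8.16, 8.24 and 8.59 at VE100. Its difference was -0.55 ± 0.21 (unadjusted p = 0.0256), and it exceeded the negative controls on 6 of 9 arrays. Without vehicle array 2 or 3, or VE100 array 1 or 2, Rps13 did not pass, with differences between -0.53 and -0.46.

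Rpl21 and Rpl7, both of the large subunit, followed Rpl27 among the positive differences of the large-subunit genes. Rpl21 read 11.91, 12.29 and 12.93 with vehicle and 12.86, 12.79 and 12.75 at VE100, a difference of 0.42 ± 0.27. Rpl7 read 12.47, 12.56 and 13.48 with vehicle and 13.09, 13.15 and 13.50 at VE100, a difference of 0.41 ± 0.30. Neither passed the criterion.

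The arrays of VE100 and vehicle did not overlap for 4 genes, Rpl29, Rpl41, Rplp1 and Rps13, all with VE100 lower, against 13.6% of all probe sets in either direction.

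**Figure D2:**
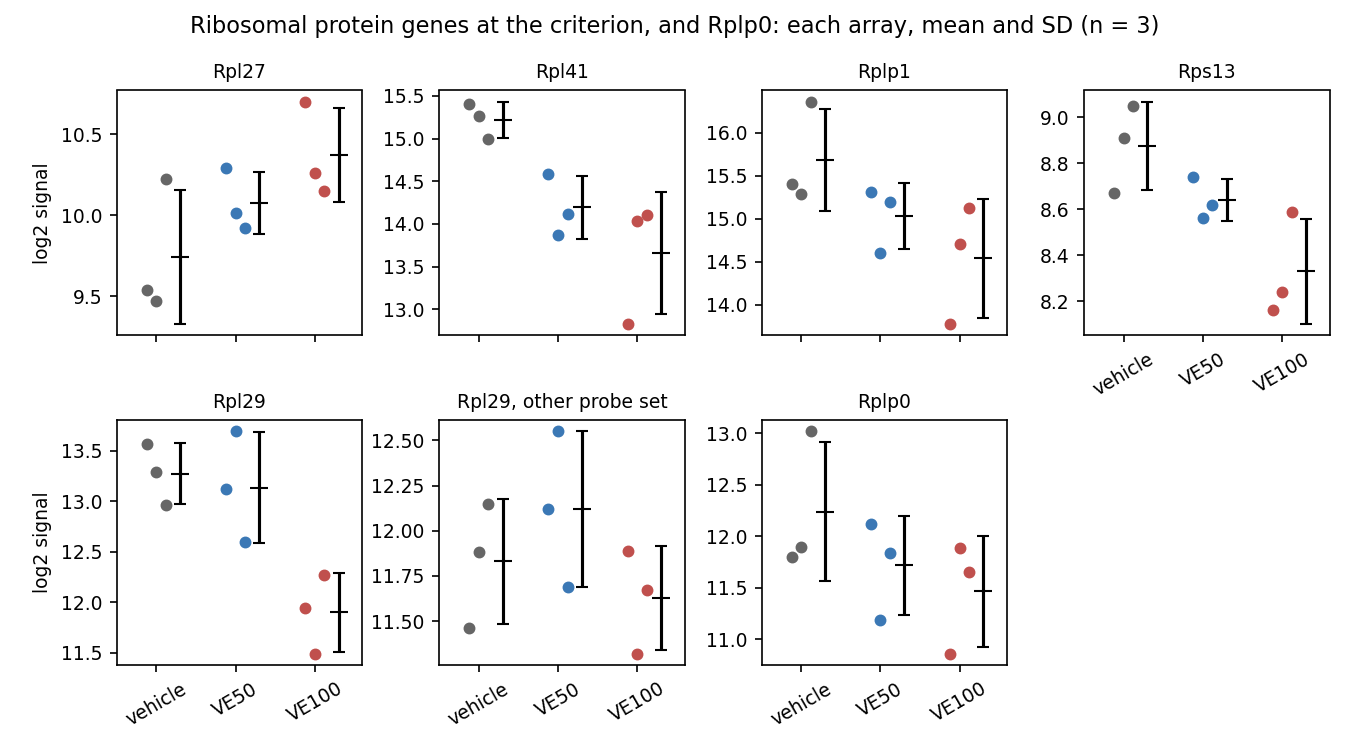
Log2 signal (y axis) by group (x axis) for 5 genes that passed the criterion, the other Rpl29 probe set and Rplp0, with 1 point per array and the group mean and SD (n = 3) in black. Rpl41 is lower on all treated arrays, and the 2 Rpl29 probe sets differ at VE100, with differences from vehicle of -1.37 and -0.20.

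Leaving out vehicle array 3 turned the direction of the VE100 median, to 0.14. The criterion was then passed by 13 genes higher and 3 lower (Rpl29, Rpl41 and Rplp1), with backgrounds of 6.99% and 9.62%. An adjusted p of 0.05 was passed by 3 genes, where 1.95% of all probe sets passed. They included Rpl29 (-1.52, limma adjusted p = 0.0427) and Rpl41 (-1.68, adjusted p = 0.0448).

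**Figure D3:**
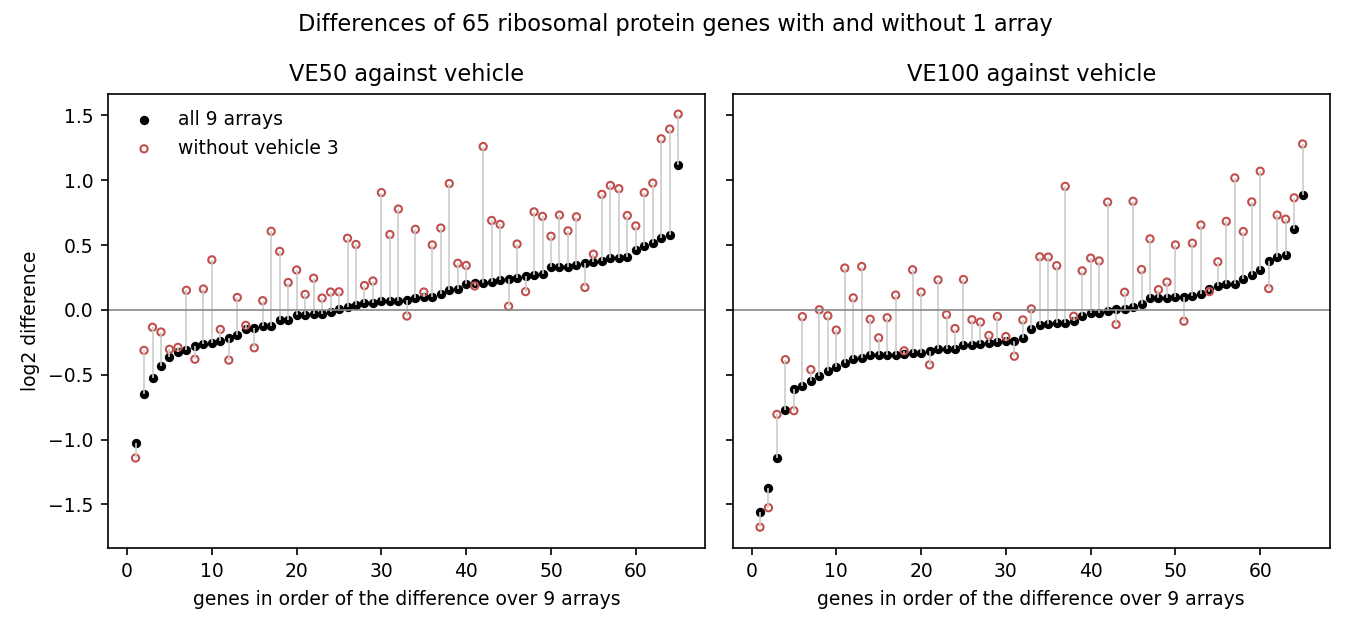
Log2 difference from vehicle (y axis) of 65 ribosomal protein genes in order of their difference over 9 arrays (x axis), at VE50 (left) and VE100 (right). Filled points use all 9 arrays and open red points leave out vehicle array 3, which moves the median from 0.07 to 0.39 at VE50 and from -0.14 to 0.14 at VE100.

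Both dose comparisons used the same vehicle arrays, so their values for a gene are not independent. Rpl41, for example, differed from vehicle by -1.03 at VE50 and by -1.56 at VE100. The direct comparison of the doses did not use the vehicle values in its means. Here 57 of the 65 genes were lower at VE100 than at VE50, with a median of -0.25, whereas 11278 of 22206 probe sets were lower and the median over all was -0.0033. Values below 0 were in the majority in each class, with 23 of 25 small-subunit genes, 27 of 32 large-subunit genes, both stalk genes and 5 of 6 l-suffixed genes below 0. The array medians of the doses overlapped, at 0.32, 0.04 and 0.00 for VE50 and -0.34, -0.03 and 0.04 for VE100.

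Single genes differed little from their replicate spread in this comparison. The criterion was passed by 1 gene lower, the Rpl29 probe set, and by none higher, with backgrounds of 1.43% and 1.49%. Its difference was -1.23 ± 0.32 (SE, limma unadjusted p = 0.00299, adjusted p = 1.0), and the other Rpl29 probe set gave -0.49 ± 0.29 (unadjusted p = 0.114). No gene passed an adjusted p of 0.05 by limma, nor did any probe set of the array (0%), and of the 65 only Rpl29 passed an unadjusted p of 0.05.

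The arrays of the doses did not overlap for 8 genes, all lower at VE100, against 10% of all probe sets in either direction. They were Rps6, Rps15a, Rps19, Rpl10a, Rpl23, Rpl29, Rpl31 and Rpl32. Rps6, the small-subunit protein phosphorylated by S6 kinase downstream of mTOR, read 16.94, 16.79 and 17.27 with vehicle, 17.06, 17.22 and 16.88 at VE50, and 16.46, 16.69 and 16.80 at VE100. Its difference between doses was -0.40 ± 0.22 (SE, limma unadjusted p = 0.0908).

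Rpl32, of the large subunit, read 13.55, 13.41 and 13.38 at VE50 and 12.78, 12.81 and 13.01 at VE100, a difference of -0.58 ± 0.37. Its vehicle arrays read 12.85, 12.88 and 14.40, a range that held all 3 VE50 arrays. Rps15 of the small subunit read 14.79, 14.38 and 13.85 at VE50 and 13.49, 13.87 and 13.87 at VE100, a difference of -0.60 ± 0.40 with overlap. Rpl41 differed by -0.53 ± 0.35 between the doses.

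The highest differences between doses were small. They were 0.30 ± 0.26 for Rpl27, 0.14 ± 0.28 for Rps4x, 0.13 ± 0.27 for Rpl9 and 0.12 ± 0.33 for Rpl10l, all with overlapping groups. Leaving out VE100 array 1, the lowest of the VE100 arrays, took the median between doses to -0.13 with 47 of 65 genes below 0. Leaving out VE50 array 1, the highest of the VE50 arrays, took it to -0.17 with 44 below 0. The mean of 8 macrophage markers was 7.53, 7.35 and 7.38 with vehicle, 7.75, 7.28 and 6.78 at VE50, and 6.93, 6.67 and 5.93 at VE100. None of the 8 was above the negative controls on all arrays, and their part in these values was not tested.

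**Figure D4:**
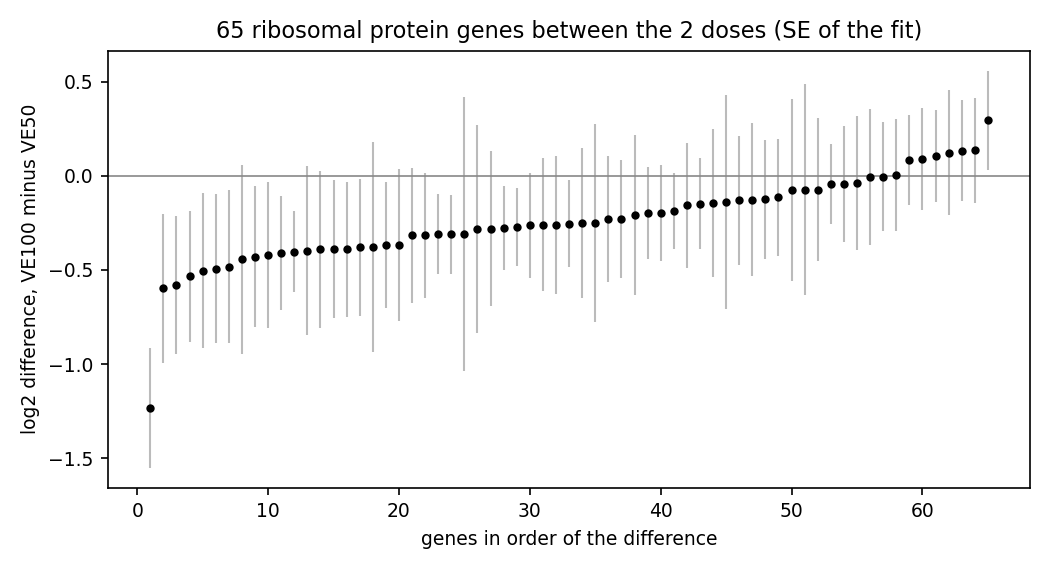
Log2 difference of VE100 from VE50 (y axis) for 65 ribosomal protein genes in order of size (x axis), with the SE of the limma fit as bars. Of the 65 points, 57 lie below 0, and the Rpl29 probe set lies lowest at -1.23.

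With each array centred on its own ribosomal protein median, genes that passed the criterion at VE100 included Rpl27, Rpl29, Rpl41 and Rplp1, and Rpl29 passed between the doses. Rpl41 at VE50 (-0.91, limma unadjusted p = 0.0536) and Rps13 at VE100 (-0.29, unadjusted p = 0.462) no longer passed it. This centring was chosen after the data had been seen.

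Of the 47 genes in the promoter table, the 11 with an annotated TOP start and the 36 without had median differences of 0.20 and 0.06 at VE50, and of -0.12 and -0.24 at VE100. Between the doses the medians were -0.37 and -0.26. The 24 genes with an upstream ETS core and the 23 without had medians of 0.06 and 0.16 at VE50, of -0.26 and -0.03 at VE100, and of -0.28 and -0.26 between the doses. These are descriptions of a small set, and no difference between the classes was tested.

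Among the l-suffixed genes, Rps27l, Rpl32l, Rpl39l and Rps4l were highest on vehicle array 3. Only Rps27l exceeded the negative controls on all 9 arrays. Rpl39l, Rps4l, Rpl3l and Rpl10l exceeded them on none. Rps27l read 13.39, 12.08 and 12.42 at VE50 and 12.14, 12.24 and 12.59 at VE100. Its parent Rps27, measured only in a probe set shared with Rps27rt, read 11.67, 11.57 and 14.06 with vehicle, 13.09, 12.10 and 12.41 at VE50, and 11.89, 12.10 and 12.27 at VE100. Both genes were thus highest on vehicle array 3 and second highest on VE50 array 1. Rpl32l read 7.82, 7.67 and 9.08 with vehicle, 8.60, 8.49 and 8.31 at VE50, and 7.97, 7.77 and 8.52 at VE100, and it exceeded the negative controls on 1 array.

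Rpl3l, the form of Rpl3 found in heart and skeletal muscle, read between 2.52 and 3.52 and had the lowest mean of the 65 genes, 2.92. Its parent Rpl3 read between 10.23 and 11.55. Rpl39l and Rpl10l, known from male germ cells, read between 4.72 and 5.52 and between 6.03 and 7.34. Their parents read between 10.74 and 12.72 (Rpl39) and between 13.11 and 13.80 (Rpl10, in a probe set shared with Snora70). Rps4l, a transcribed pseudogene in RefSeq, read between 6.41 and 7.57, and the signal of Rps4x lay between 10.79 and 11.98. None of these paralogs passed the criterion in any comparison. The highest mean signals belonged to Rps6, at 16.90, and Rps23, at 15.54, but signals of different probe sets do not rank mRNA levels.

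Genes around the ribosome were described from lists named for their role, beside the same criterion. Its background was 3.31% higher and 2.8% lower at VE50, 5.11% and 4.37% at VE100, and 1.49% and 1.43% between the doses. Without vehicle array 3 the background was 5.95% higher and 7.52% lower at VE50, and 6.99% and 9.62% at VE100. Of 75 mitochondrial ribosomal protein genes, 2 were higher and 1 lower at VE50, and 3 higher and 2 lower at VE100. Their medians were 0.03 and -0.10, and -0.12 between the doses with 1 gene lower. Of the 75, 20 were highest on vehicle array 3, a share near the 23.6% of all probe sets. The median deviations of the 75 genes on the vehicle arrays were -0.0011, -0.05 and 0.08. Mrpl19, of the large mitochondrial subunit, read 6.99, 7.60 and 7.53 with vehicle, 8.60, 8.29 and 7.46 at VE50, and 8.11, 7.89 and 8.36 at VE100. Its differences were 0.74 ± 0.31 at VE50 and 0.75 ± 0.31 at VE100 (SE), and both passed the criterion. All values of Mrpl19 lay below 9.08, the highest of Rpl32l, which exceeded the negative controls on 1 array. Without vehicle array 3, 7 mitochondrial genes were higher and 9 lower at VE50, and 6 higher and 13 lower at VE100.

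Of 16 measured genes with TOP mRNAs that are not ribosomal proteins, 1 passed the criterion in each comparison, and it was the same gene, Eef1b2. Eef1b2, a nucleotide exchange subunit of elongation factor 1, read 15.62, 15.37 and 15.27 with vehicle, 14.86, 14.89 and 14.23 at VE50, and 13.35, 13.51 and 13.54 at VE100. The 3 groups did not overlap, and the differences were -0.76 ± 0.23 at VE50, -1.95 ± 0.23 at VE100 and -1.19 ± 0.23 between the doses (SE). The limma adjusted p at VE100 was 0.0868, equal to the smallest of all probe sets. The medians of the 16 genes were 0.06 at VE50, 0.005 at VE100 and -0.18 between the doses. Without vehicle array 3, 3 of them were higher and 2 lower at VE50, and 1 higher and 2 lower at VE100. The background without that array was 5.95% and 7.52% at VE50, and 6.99% and 9.62% at VE100.

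Of 26 measured ribosome biogenesis genes, 5 were higher and 1 lower at VE50, against 3.31% and 2.8% of all probe sets. At VE100, 3 were higher and 3 lower, against 5.11% and 4.37%. Between the doses 2 were lower, against 1.43%. Nop58, a core protein of box C/D small nucleolar RNPs, read 6.79, 7.28 and 7.20 with vehicle, 7.95, 8.04 and 7.80 at VE50, and 7.32, 7.49 and 7.48 at VE100. It was 0.84 ± 0.21 higher at VE50 than with vehicle and 0.50 ± 0.21 lower at VE100 than at VE50. Bop1, needed for 28S and 5.8S rRNA maturation, read 5.64, 5.87 and 6.03 with vehicle and 4.96, 4.68 and 5.28 at VE100, a difference of -0.87 ± 0.24. Tsr1, a maturation factor of the small subunit, was 0.74 ± 0.20 higher at VE100, with all 3 arrays above the vehicle arrays. None of these passed an adjusted p of 0.05 by limma. Nop58, Bop1 and Tsr1 also read low, with every value below 9.08, the highest of Rpl32l, which exceeded the negative controls on 1 array. Their own comparison with the negative controls was not made. When each array was left out in turn, 1 to 4 of the 26 genes were higher and 0 to 1 lower at VE50. The shares of all probe sets in those fits were 2.24% to 5.95% and 1.9% to 7.52%. The count of 5 higher was not reached in any of them. Without vehicle array 3 the counts were 3 higher and 0 lower at VE50, and 2 higher and 4 lower at VE100. The background without that array was 5.95% and 7.52% at VE50, and 6.99% and 9.62% at VE100.

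Among 12 genes of the mTOR and MYC pathways that control ribosome production, Tsc1 passed the criterion at both doses. Tsc1, part of the complex that inhibits mTORC1, read 8.45, 7.97 and 6.86 with vehicle, 6.90, 6.37 and 7.11 at VE50, and 6.94, 7.17 and 6.24 at VE100. Vehicle array 3 lay within the treated values, and the differences were -0.97 ± 0.41 and -0.98 ± 0.41 (SE). All values of Tsc1 lay below 9.08, the highest of Rpl32l, which exceeded the negative controls on 1 array. The median deviations of the 12 genes were 0.36, 0.37 and -0.65 on the vehicle arrays, the opposite order to that of the ribosomal protein genes. Without vehicle array 3, 2 of the 12 were higher and 6 lower at VE50, and 1 higher and 5 lower at VE100. The background without that array was 5.95% and 7.52% at VE50, and 6.99% and 9.62% at VE100.

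The authors' deposited table of VE100 against vehicle listed 1815 probe sets, where the array has 22206. It held 4 of the 65 genes, which is no larger a share. In the authors' deposited table Rplp1 had a fold of -1.65 (p = 0.0373), Rpl41 one of -2.23 (p = 0.0025) and Rpl29 one of -2.57 (p = 0.0005), where a negative fold is lower at VE100. These folds follow from the authors' own group averages, which for Rpl41 and Rplp1 differ from the means used here. Rpl41 at VE100 averaged 14.08 there and 13.66 here, and Rplp1 with vehicle averaged 15.35 there and 15.68 here. The 14.08 lay between VE100 arrays 2 and 3 (14.04 and 14.11), with array 1 at 12.83. The 15.35 lay between vehicle arrays 1 and 2 (15.40 and 15.29), with array 3 at 16.36. For Rpl29 at VE100 the averages were 11.91 there and 11.9 here. The false discovery rates in the authors' deposited table were between 0.347 and 0.583. Rpl27 and Rps13, which passed the criterion here, were not among the 4. An F-test in the authors' deposited table, whose conditions its column names do not give, gave Rpl29 a false discovery rate of 0.0315 and Rpl41 one of 0.0874.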

How the data were processed

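Liver RNA of 9 ob/ob mouse samples was measured on Clariom S arrays. Per the series' design text, the authors normalized the arrays by SST-RMA in the Transcriptome Analysis Console 4.0.2, and the deposited values are log2 signals with 2 decimals. The deposited value table of the series also holds log2 values and the control probe sets, and its exact algorithm is not given in the sources used here. The authors also deposited p-values, false discovery rates and signed fold changes, which are quoted only where named. The deposited signed fold is a score without values between -1 and 1, which for the genes quoted follows from the authors' deposited group averages. No depth applies to arrays, so the number of arrays limits the precision.

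Group means over all 22206 probe sets and 9 arrays were fitted with limma 3.58.1 in R 4.3.3 (lmFit, eBayes, two-sided), with Benjamini-Hochberg adjustment over all probe sets and no filter on low values. The fit was also run on simulated data with independent noise per probe set and no outlying array. That run does not bear on the influence of vehicle array 3. The members and lists were chosen with earlier results of these data known. Any gene of the class could be named, but some results are not reported here, and counts are over all 65 genes. Array values were given for the 4 highest and 4 lowest differences of each comparison, genes at the criterion, stalk genes, Rps6, Rpsa, paralogs with their parents, and up to 3 genes per related list. Alternatives included leaving out each array, another normalization, array weights, centring and a replicate block. Sequences are from RefSeq tables of GRCm38.p6. Replicate numbers did not pair arrays, with correlations of same-numbered arrays between -0.24 and 0.21.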

Additional observations from a re-analysis of the deposited data

Results flagged for a closer look

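The retained Rpl29 probe set differed between the doses by -1.23 on the log2 scale (VE100 minus VE50, limma unadjusted p = 0.00299, adjusted p = 1.0), a test of the difference between the 2 treated groups at the unadjusted level only. It was lower on all 3 VE100 arrays than on all 3 VE50 arrays. The other Rpl29 probe set gave -0.49 (unadjusted p = 0.114).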

How the results depend on the processing

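Vehicle array 3 was the choice that moved most results. When each array was left out in turn, the genes higher at the criterion numbered 1 to 27 at VE50 and 0 to 13 at VE100, and the genes lower numbered 0 to 1 and 2 to 5. Between the doses 1 to 3 genes were lower. The shares of all probe sets in these fits were 2.24% to 5.95% higher and 1.9% to 7.52% lower at VE50. They were 4.08% to 6.99% higher and 3.22% to 9.62% lower at VE100, and 0.842% to 3.08% lower between the doses. An adjusted p of 0.05 was passed by 0 to 1 gene at VE50 and by 0 to 3 at VE100, and the ends 27, 13, 1 and 3 are without vehicle array 3. Without that array 0.045% of all probe sets passed the adjusted threshold at VE50 and 1.95% at VE100. The medians ranged from -0.07 to 0.39 at VE50, from -0.32 to 0.14 at VE100 and from -0.34 to -0.13 between the doses. Array weights, which gave vehicle array 3 a weight of 0.215, gave 20 genes higher at VE50, 9 higher at VE100 with 1 past the adjusted threshold, and 2 lower between the doses. Under these weights 5.98% of all probe sets were higher at VE50, 7.62% higher at VE100 with 0.563% past the adjusted threshold, and 3.0% lower between the doses. Quantile normalization gave 2 higher at VE50 and 1 higher at VE100, against 3.71% and 6.26% of all probe sets. The series' value table gave 2 lower at VE50, against 2.81% of all probe sets. Fitting only the groups compared gave 1 higher at VE100 and 2 lower between the doses, against 3.95% and 2.7% of all probe sets. The one-way test without empirical Bayes gave 3 higher at VE50 and 2 lower between the doses, against 3.57% and 1.68%. Centring arrays on the ribosomal protein median, chosen after seeing the data, gave 0 lower at VE50, against 0.405% of all probe sets. That share is not a background for the 65 genes, because the centring subtracts their median from every probe set. The cause of these changes was not tested. With the replicate number as a block, 1 gene was higher at VE100, against 4.52% of all probe sets (Rpl27, at an unadjusted p of 0.0541, did not pass). No other count of the 65 genes changed under the block. Leaving out 1 array turned the sign of up to 17 of the 65 differences at VE50 (without vehicle array 1), up to 20 at VE100 (without vehicle array 3) and up to 15 between the doses (without VE50 array 1). Among the differences named by size these were 3 that had not passed the criterion, with ranges of -0.01 to 1.40 for Rpl31 at VE50, and of -0.23 to 0.41 for Rpl10l and -0.058 to 0.32 for Rps4x between the doses. Rpl41 at VE100 passed the criterion in all 19 alternatives run for it, with adjusted p between 0.0448 and 0.95. Rpl29 passed at VE100 and between the doses in 19 of 20, the exception being its other probe set. Signals near the negative controls limit Rps13 and the l-suffixed genes other than Rps27l. Low signals also limit Nop58, Bop1, Tsr1, Mrpl19 and Tsc1 of the related lists.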
